A study of Homo sapiens with 6 samples.

Results

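The 44 genes described here encode the working parts of the DNA replication fork: the replicative polymerases, the PCNA clamp and its loaders, the enzymes that finish Okazaki fragments, the single-strand binding protein RPA, the GINS and CDC45 partners of the MCM helicase, and the factors that fire origins and signal from stalled forks. They were chosen by name from a list of replication genes that holds no measured value, but earlier results of these data were known then. All 44 were present among the 21857 genes of the tables. All 44 also passed the filter on low counts that left 13531 genes for testing. Messenger RNA was measured by RNA sequencing in the cell line MV4;11, from a human acute myeloid leukemia, for which the labels give FLT3-ITD and MLL-AF4, carried by treated and control cells alike. 3 libraries came from cells given 10 µg/ml flavokawain A (FKA), a chalcone of the kava plant, for 48 h, and 3 control libraries from cells without FKA. The labels put FKA and control libraries of the same replicate number in 1 batch. They do not say whether the libraries came from separate cultures, so the p-values measure the spread between these libraries, and the results hold for 1 cell line.

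At a replication fork the CMG helicase, built of CDC45, the MCM ring and GINS, opens the double helix. Polymerase alpha-primase lays down primers, polymerase epsilon copies mainly the leading strand, and polymerase delta copies mainly the lagging strand while held on DNA by the ring-shaped clamp PCNA. Most of these genes are transcribed when a cell commits to a new round of replication, many of them under E2F transcription factors, so their transcripts are high in proliferating leukemia cells and low in resting ones. The comparison asks which parts of this machinery differ in transcript level after FKA.

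The libraries held between 29971171 and 33183376 counts with FKA and between 33759185 and 36362421 counts in the controls. Between 17457 and 18409 genes had a count in a library, and the 13 mitochondrial genes took 3.78 to 4.25% of counts with FKA and 3.02 to 3.81% in controls. Among 10 markers of the myeloid leukemia line, all were detected in every library, and their sum was 1710 to 1760 CPM (TMM-scaled CPM) with FKA and 1210 to 1500 CPM in controls. The markers did not move together. MPO, a granule enzyme of myeloid precursors, had 0.777, 0.313 and 2.1 CPM with FKA and 34.7, 30.1 and 68.7 CPM in controls, whereas CSF3R, the receptor for granulocyte colony-stimulating factor, had 167, 165 and 184 CPM with FKA and 63.2, 55.7 and 60 CPM in controls. MPO and CSF3R were named after their values were seen. Of 8 mesenchymal markers, led by FN1 and COL1A1, the sum was 1.12, 52.7 and 48.8 CPM in FKA replicates 1 to 3, and 10.7, 8.94 and 0.773 CPM in control replicates 1 to 3. COL1A2, COL3A1, SPARC, DCN and LUM were, like FN1 and COL1A1, higher in FKA replicates 2 and 3 than in FKA replicate 1. PDGFRB, the remaining marker of the list, stayed at or below 0.0559 CPM in all 6 libraries. FKA replicate 1, which nearly lacks these reads, is used below as a check. Of the other lists, the 5 epithelial markers summed to 12.9 to 18.9 CPM with FKA and 19.1 to 21.8 CPM in controls. The 3 T and NK cell markers in the table, nearly all from NKG7, summed to 9.32 to 9.7 CPM and 21.2 to 24.2 CPM. The 3 B cell markers, nearly all from PAX5, summed to 7.3 to 9.64 CPM and 20.6 to 27.3 CPM, and CD3D, a T cell marker, was near 0. The 4 endothelial markers, nearly all from PECAM1, summed to 28.2 to 41.1 CPM with FKA and 33.6 to 65.3 CPM in controls. Of the 5 erythroid markers only TFRC, which dividing cells also use, was in the table. The part of these markers in the results was not tested.

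Across the 44 fork genes, 40 fell with FKA, 1 rose and 3 were not called (edgeR quasi-likelihood test, Benjamini-Hochberg adjusted p under 0.05 over all tested genes). Over all 13531 tested genes, 30.5% fell and 29.3% rose, 59.8% in either direction. The median log2 fold change of the 44 genes was -1.82, beside 0.01 for all tested genes, so that the median member stood at 28.4% of its control level. A fall of at least 2-fold was called in 34 members, against 13.7% of all tested genes, and a fall of at least 8-fold in 9 members, against 2.46% of all tested genes. The 9 were CDC45, TICRR, GINS1, DSCC1, CLSPN, GINS2, CHEK1, POLE2 and RFC3. The 6 members that fell by less than 2-fold were PRIM2, POLE3, RFC1, RPA1, RPA2 and ATR. In 40 members every FKA library lay below every control library, which was so for 33.6% of all tested genes. The 44 genes together took 0.105, 0.105 and 0.11% of all counts in FKA replicates 1 to 3, and 0.246, 0.298 and 0.313% in control replicates 1 to 3. In bulk RNA, fewer replicating cells and less RNA per cell cannot be told apart.

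**Figure D1:**
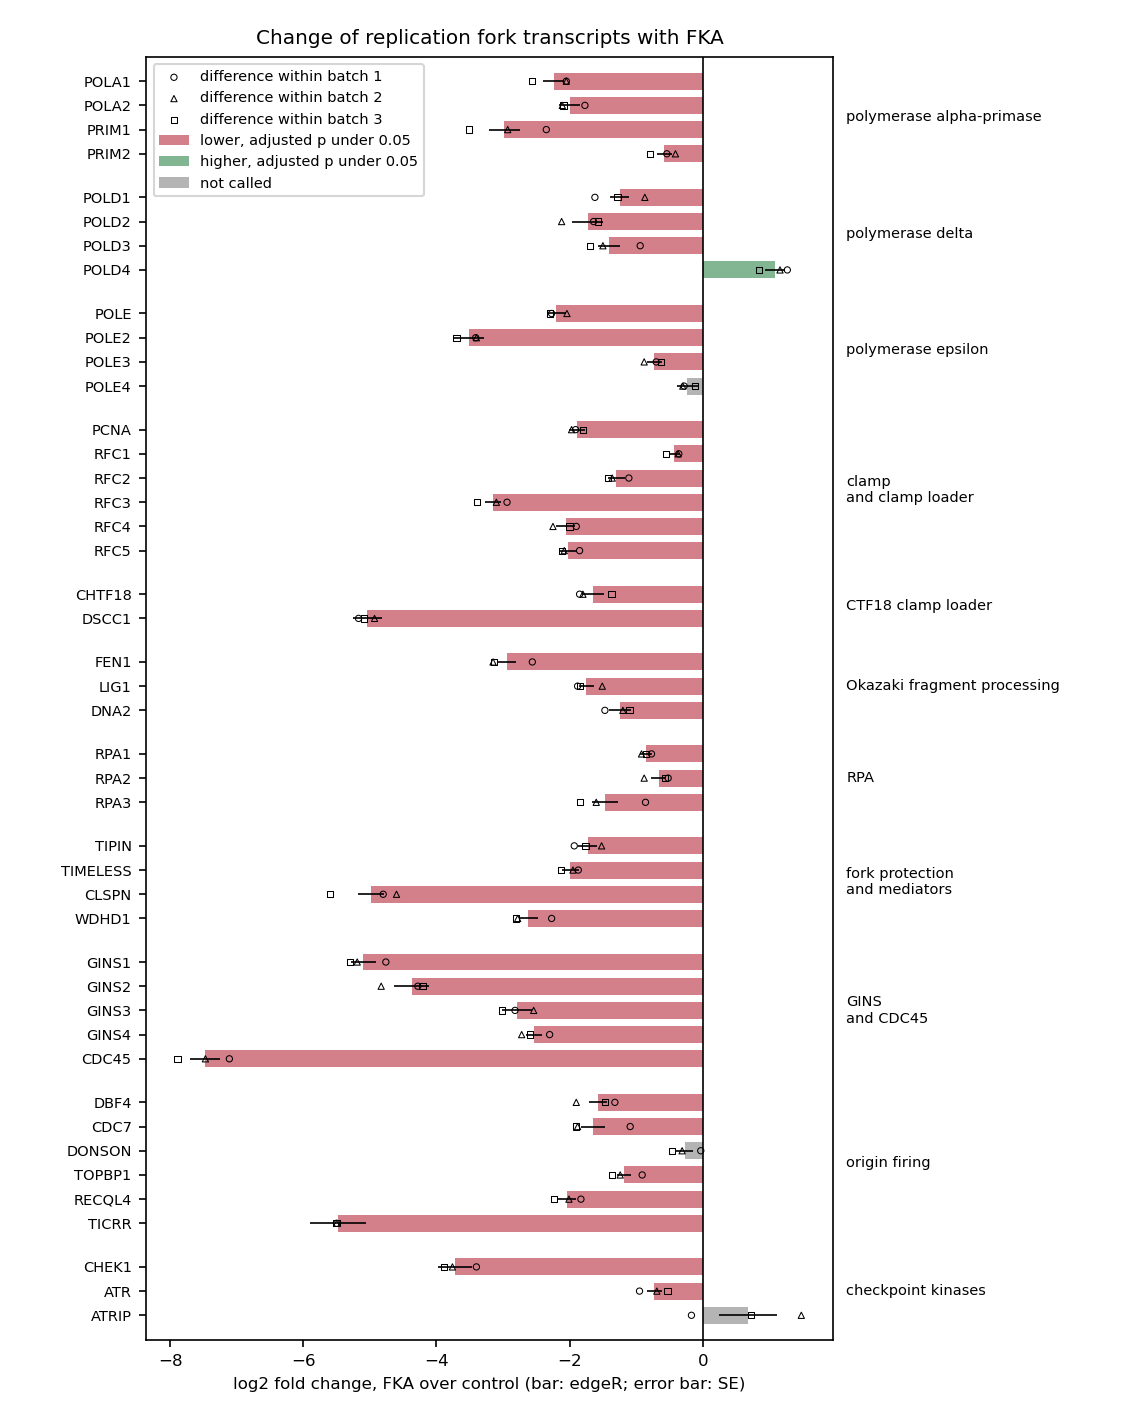
Log2 fold change of each of the 44 fork genes, FKA over control (x axis, log2 scale), with genes on the y axis grouped by complex; bars are edgeR estimates coloured by call, error bars are the SE, and open symbols are the differences within each of the 3 batches. CDC45 reaches -7.47, POLD4 points up at 1.09, and POLE4, DONSON and ATRIP are not called.

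The direction held in each batch. The median log2 difference of the 44 genes, FKA minus control, was -1.85, -1.96 and -1.87 in batches 1, 2 and 3. In all 3 batches 42 members were lower and POLD4 was higher, while ATRIP went both ways. With the batch as a block 40 members were again called lower, against 31.2% of all tested genes, and 1 higher. Without FKA replicates 2 and 3, which carry most of the mesenchymal reads, 39 members were lower and 1 was higher, with a median of -1.97. The member that lost its call there was RFC1. That fit holds 1 FKA library, and control replicates 1 and 2 keep mesenchymal reads. Their marker sums were 10.7 and 8.94 CPM, beside 1.12 CPM in FKA replicate 1, so the fit does not compare libraries free of these reads.

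**Figure D2:**
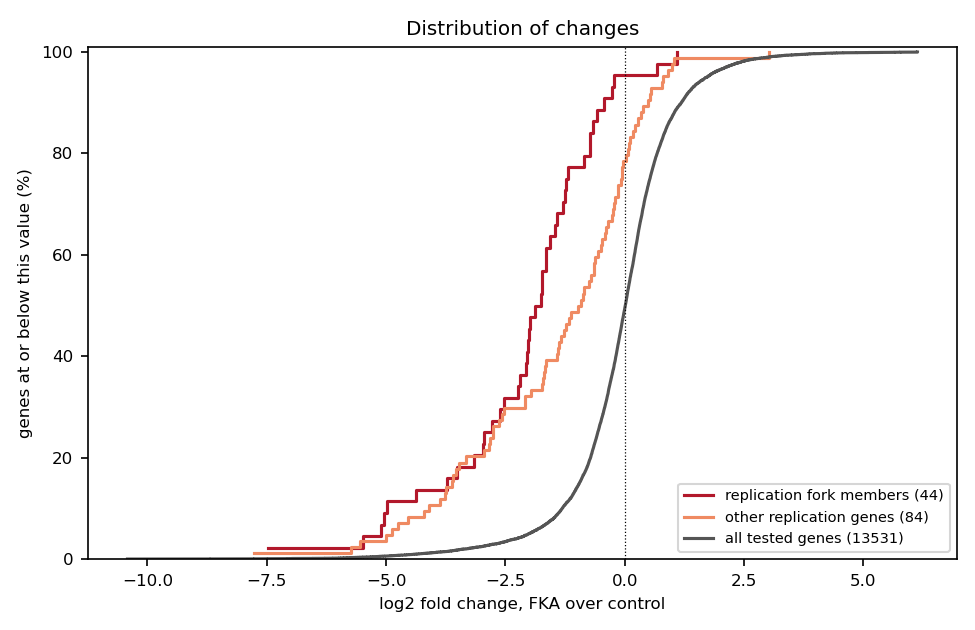
Share of genes (y axis, %) at or below each log2 fold change, FKA over control (x axis), for the 44 fork genes, 84 other replication genes and all 13531 tested genes. At the middle of the curves the fork genes lie furthest left, with a median of -1.82, beside -0.94 for the other replication genes and 0.01 for all tested genes, while the curves of the fork genes and the other replication genes cross in the lower tail.

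Promoter sequences of members that behaved differently are shown next, because many genes of this machinery are known E2F targets. No promoter was at hand for POLD3, DSCC1, DNA2, RPA2, RPA3, GINS4, DONSON and RECQL4, of which DSCC1 fell at least 8-fold. For the other 36 of the 44 members, RefSeq promoters of build GRCh38.p14 were available, from 250 bases before to 50 bases after each listed start. They were searched on both strands for the E2F-type letters TTTGGCGC, TTTCCCGC, TTTGCCGC and TTTCGCGC, for CCAAT, the letters bound by NF-Y, and for the CHR letters TTTGAA of cell cycle genes. The E2F-type letters were in a promoter of 15 of the 36 members (41.7%), beside 6.77% of 10608 tested genes with a promoter. Counted by promoter, they were in 15 of 50 member promoters (30%), beside 3.31% of all 35116 promoters. CCAAT was found for 20 members (55.6%), beside 42.8% of tested genes, and in 27 of 50 member promoters (54%), beside 34.6% of all promoters. TTTGAA was found for 2 members (5.56%), beside 13.7% of tested genes, and in 2 of 50 member promoters (4%), beside 15.2% of all promoters. The 15 members with E2F-type letters had a median log2 fold change of -2.20 and ranged from -5.10 to -0.23. The 21 members without them had a median of -1.65 and ranged from -7.47 to 1.09. Called lower were 14 of the 15 and 19 of the 21, beside 30.5% of all tested genes. Only these exact letters were counted, so a member without them may hold a form that differs by a base. A match is a description and not evidence of binding.

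The following lines give the 120 bases upstream of the first listed start, 5′ to 3′ on the gene's strand, with E2F-type letters and CCAAT of either strand in capitals. None of these stretches holds TTTGAA on either strand, and in POLE a CCAAT of each strand overlap. PCNA (chr20:5126623-5126742, minus strand), GINS2 (chr16:85688955-85689074, minus), RFC3 (chr13:33818029-33818148, plus), POLE (chr12:132687343-132687462, minus) and POLA2 (chr11:65261842-65261961, plus) all fell and carry E2F-type letters. CDC45 (chr22:19479800-19479919, plus) fell furthest and has 4 CCAAT matches but none of the searched E2F letters. The stretches were picked by hand and do not stand for all members. Among members not shown, TICRR (log2 fold change -5.48), CHEK1 (-3.72), PRIM1 (-2.98) and FEN1 (-2.94) also fell without these letters. GINS1 (-5.10), CLSPN (-4.98), POLE2 (-3.51) and GINS3 (-2.79), not shown either, fell and carry them. The stretches of CDC45 and POLA2 also hold tttggcgg, which differs from the searched TTTGGCGC in its last base and was not counted. POLE4 (chr2:74958523-74958642, plus) was not called although it carries E2F-type letters, and POLD4 (chr11:67353597-67353716, minus), the member that rose, has 2 CCAAT matches here and no E2F-type letters.
PCNA: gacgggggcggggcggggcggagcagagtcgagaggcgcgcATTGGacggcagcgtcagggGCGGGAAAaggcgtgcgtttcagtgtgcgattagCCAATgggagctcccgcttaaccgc
GINS2: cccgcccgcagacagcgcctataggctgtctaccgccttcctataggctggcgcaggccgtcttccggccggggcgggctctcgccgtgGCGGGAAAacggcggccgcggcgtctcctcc
RFC3: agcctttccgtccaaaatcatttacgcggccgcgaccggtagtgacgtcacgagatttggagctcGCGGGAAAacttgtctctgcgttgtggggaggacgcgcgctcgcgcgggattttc
POLE: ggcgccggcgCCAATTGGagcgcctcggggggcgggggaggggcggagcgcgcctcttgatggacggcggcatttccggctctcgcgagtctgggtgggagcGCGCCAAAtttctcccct
POLA2: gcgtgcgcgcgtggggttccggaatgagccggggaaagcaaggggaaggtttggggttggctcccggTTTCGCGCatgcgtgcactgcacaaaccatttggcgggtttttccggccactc
CDC45: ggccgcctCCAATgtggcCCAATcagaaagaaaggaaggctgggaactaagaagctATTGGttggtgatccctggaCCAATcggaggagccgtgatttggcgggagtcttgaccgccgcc
POLE4: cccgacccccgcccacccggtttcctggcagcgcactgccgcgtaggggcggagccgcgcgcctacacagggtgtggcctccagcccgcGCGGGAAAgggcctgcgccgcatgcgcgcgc
POLD4: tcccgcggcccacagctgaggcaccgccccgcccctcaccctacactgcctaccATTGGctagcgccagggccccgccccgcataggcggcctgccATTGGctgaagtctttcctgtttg

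All 5 helicase partners fell, with a median log2 fold change of -4.37. CDC45, which completes the CMG helicase, had 0.0899, 0.0776 and 0.0714 FPKM in FKA replicates 1 to 3 and 12.4, 13.7 and 17 FPKM in control replicates 1 to 3 (FPKM, fragments per kilobase of transcript scaled to library size, here after TMM rescaling). The groups were far apart. Only 6 or 7 reads were counted for CDC45 in an FKA library, against 935 to 1378 in a control, and its log2 fold change was -7.47 (SE 0.225, edgeR adjusted p = 3.66e-07). Its batch differences were -7.11, -7.47 and -7.89 on the log2 scale. The 4 subunits of GINS, the ring-side partner that joins CDC45 to MCM, all fell, but by unequal amounts. GINS1 had 0.365, 0.359 and 0.371 FPKM with FKA and 9.93, 13.1 and 14.6 FPKM in controls, a log2 fold change of -5.10 (SE 0.189, edgeR adjusted p = 9.27e-07). GINS2 had 0.295, 0.155 and 0.296 FPKM with FKA and 5.73, 4.41 and 5.46 FPKM in controls (-4.37, SE 0.262). GINS4, by mean the most abundant of the 4 in both groups, had 2.47, 2.02 and 2.32 FPKM with FKA. In controls it had 12.2, 13.3 and 14 FPKM (-2.53, SE 0.121). GINS3 stood between them at -2.79 on the log2 scale. GINS4 made up 59.2 ± 4.13% of the summed GINS FPKM with FKA and 35.3 ± 1.94% in controls (SD, n = 3 each), and GINS1 9.56 ± 0.339% and 33.3 ± 2.87%. In neither subunit did the shares of the groups overlap. GINS2 lies across GSE1 in the RefSeq annotation, and GSE1 had 9002 to 9057 counts with FKA where GINS2 had 13 to 27, so a part of the few remaining GINS2 reads is uncertain.

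Of 6 factors that fire origins 5 fell, with log2 fold changes between -5.48 for TICRR and -1.18 for TOPBP1. TICRR (treslin), which brings CDC45 to loaded MCM rings, had 0.0549, 0.101 and 0.14 FPKM with FKA and 2.49, 4.60 and 6.32 FPKM in controls. Control replicate 1 was the lowest control, and every FKA library lay far below it, with a log2 fold change of -5.48 (SE 0.425, edgeR adjusted p = 1.61e-05) and -6.34 without FKA replicates 2 and 3. RECQL4, a helicase-like factor needed at initiation, had 3.69, 4.25 and 3.85 FPKM with FKA and 13.1, 17.1 and 18.0 FPKM in controls (log2 fold change -2.04). The kinase CDC7 and its activator DBF4, which phosphorylate MCM, fell by similar amounts, with log2 fold changes of -1.65 (SE 0.178) and -1.57 (SE 0.137). Their count ratio, DBF4 over CDC7, differed by 0.06 on the log2 scale between FKA and control, and the libraries of the groups overlapped. TOPBP1, the scaffold of both initiation and ATR activation, fell by 1.18 on the log2 scale and ranked 5 by level among the members with FKA and 6 in controls. DONSON, which helps deliver GINS, had 12.4, 13.3 and 11.2 FPKM with FKA and 12.7, 16.5 and 15.4 FPKM in controls. The groups overlapped at control replicate 1, and DONSON was not called (log2 fold change -0.27, SE 0.125, edgeR adjusted p = 0.0843). Without control replicate 1 it was called lower, at -0.38 (edgeR adjusted p = 0.0143).

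All 4 transcripts of polymerase alpha-primase fell. PRIM1, the catalytic primase subunit, had 9.36, 10.1 and 8.15 FPKM with FKA and 47.9, 76.6 and 93.0 FPKM in controls, and by level it ranked 12 among the members with FKA and 2 in controls. The spread among the controls was wide and that among the FKA libraries narrow, and the log2 fold change was -2.98 (SE 0.229, edgeR adjusted p = 1.58e-05). Its partner PRIM2, the large primase subunit, had 2.87, 3.06 and 2.72 FPKM with FKA and 4.16, 4.08 and 4.72 FPKM in controls, which gave -0.58 (SE 0.111, edgeR adjusted p = 0.00178). PRIM2 made up 18.9 ± 0.291% of the complex's summed FPKM with FKA and 5.02 ± 1.37% in controls (SD, n = 3 each). RAB23, which overlaps PRIM2 in the annotation, had 639 to 721 counts with FKA and 591 to 1045 in controls. PRIM2 had 658 to 699 counts with FKA and 922 to 1130 in controls, and reads shared by the pair cannot be assigned. The catalytic polymerase subunit POLA1 had 1.1, 1.34 and 1.1 FPKM with FKA and 4.54, 5.57 and 6.52 FPKM in controls (-2.24, SE 0.158). Its accessory subunit POLA2 had 1.91, 2.01 and 2.22 FPKM with FKA and 6.51, 8.67 and 9.41 FPKM in controls (-2, SE 0.155). The ratio of POLA1 to POLA2 differed by -0.24 on the log2 scale, and its libraries overlapped between groups.

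Polymerase delta contained the member that rose. POLD4, its smallest subunit, whose protein is known to be degraded in S phase and after DNA damage, had 17.5, 21.2 and 16.0 FPKM with FKA and 7.27, 9.5 and 8.89 FPKM in controls. Every FKA library was above every control, with a log2 fold change of 1.09 (SE 0.15, edgeR adjusted p = 0.000309), and the batch differences were 1.27, 1.16 and 0.85. The catalytic subunit POLD1 had 4.76, 6.81 and 5.94 FPKM with FKA and 14.7, 12.5 and 14.4 FPKM in controls (-1.25, SE 0.142). The structural subunit POLD2 had 8.31, 4.37 and 8 FPKM with FKA, lowest in FKA replicate 2, and 26, 19 and 23.7 FPKM in controls. It stood at -1.73 and POLD3, which tethers the polymerase to PCNA, at -1.41. POLD4 thus supplied 50.3 ± 5.83% of the complex's summed FPKM with FKA and 14.5 ± 2.48% in controls (SD, n = 3 each). By level POLD4 ranked 4 among the 44 members with FKA and 33 in controls. An overlapping transcript of the annotation, LOC100130987, rose as well (28, 57 and 48 counts with FKA, 8, 6 and 7 counts in controls). POLD4 had 945 to 1151 counts with FKA and 383 to 576 in controls. Whether strand was used in counting is not stated in any source at hand, so reads shared by the pair cannot be assigned.

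**Figure D3:**
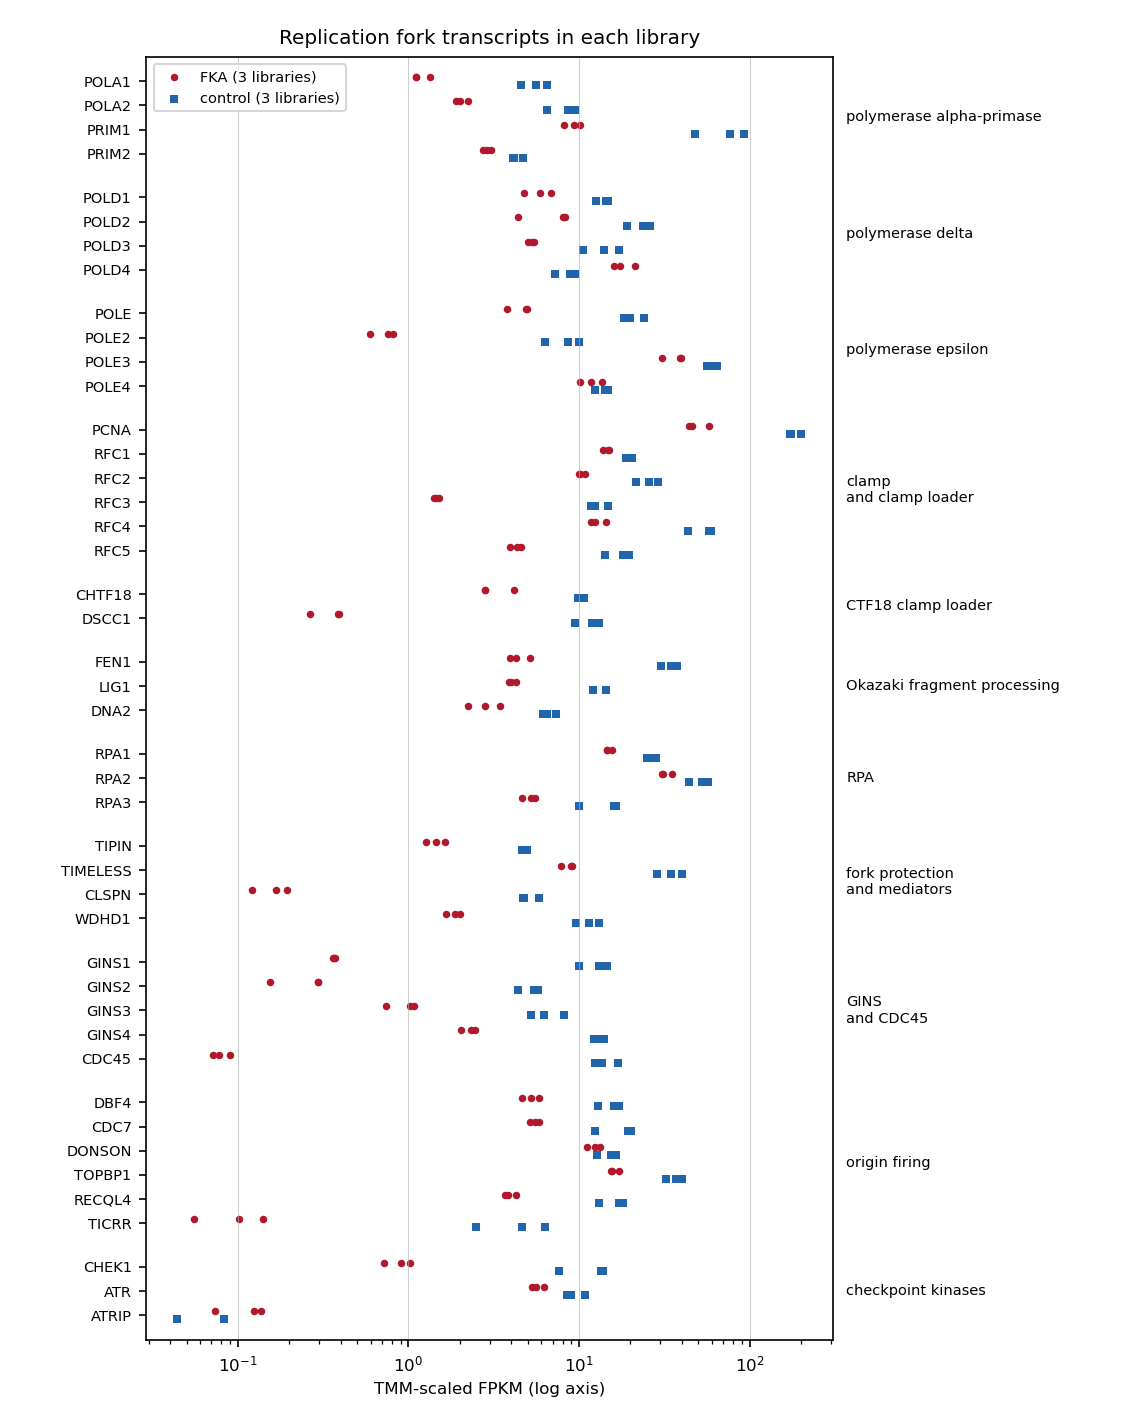
TMM-scaled FPKM (x axis, log scale) of each of the 44 fork genes (y axis, grouped by complex) in the 3 FKA libraries (red circles) and 3 control libraries (blue squares). Red circles lie left of all blue squares in 40 genes, right of them in POLD4, and among them in POLE4, DONSON and ATRIP.

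Within polymerase epsilon, POLE and POLE2 changed by more than the histone-fold pair POLE3 and POLE4. The catalytic subunit POLE had 3.79, 4.87 and 4.94 FPKM with FKA and 18.3, 20 and 24.2 FPKM in controls, a log2 fold change of -2.20 (SE 0.142, edgeR adjusted p = 7.78e-06). POLE2, the essential second subunit, which contacts the CMG helicase, had 0.592, 0.814 and 0.762 FPKM with FKA and 6.31, 8.60 and 9.93 FPKM in controls (-3.51, SE 0.228). Both stayed without overlap between groups. POLE3 and POLE4 form a histone-fold dimer, and POLE3 also serves in a chromatin remodelling complex. POLE3 fell by 0.73 in log2 terms (SE 0.114, edgeR adjusted p = 0.000609) and had 39.4, 30.5 and 39.0 FPKM with FKA and 64.1, 56.3 and 60.4 FPKM in controls. POLE4 was not called, with 11.8, 10.1 and 13.6 FPKM with FKA and 14.2, 12.4 and 14.8 FPKM in controls (-0.23, SE 0.153, edgeR adjusted p = 0.227). LOC105374809, which overlaps POLE4 in the annotation, had 417 to 482 counts with FKA and 628 to 701 in controls (-0.51, edgeR adjusted p = 0.00517). POLE4 had 353 to 519 counts with FKA and 485 to 547 in controls, and reads shared by the pair cannot be assigned. POLE held 8.61 ± 1.86% of the complex's summed FPKM with FKA and 20.2 ± 2.22% in controls, and POLE2 1.38 ± 0.352% and 8.02 ± 1.63% (SD, n = 3 each).

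PCNA was the most abundant member in both groups. It had 46.0, 44.3 and 57.5 FPKM with FKA and 173, 174 and 201 FPKM in controls, without overlap, and its log2 fold change was -1.89 (SE 0.123, edgeR adjusted p = 7.89e-06). RFC, the loader that opens the clamp, showed a gradient. RFC1, its large subunit and the part that distinguishes it from other loaders, had 15, 14.7 and 13.9 FPKM with FKA and 19.2, 18.9 and 20.4 FPKM in controls (-0.43, SE 0.0807, edgeR adjusted p = 0.00176). The small subunits, which other clamp loaders share, fell further, RFC2 by 1.30, RFC5 by 2.02, RFC4 by 2.06 and RFC3 by 3.15 on the log2 scale. RFC4 had 11.8, 12.4 and 14.4 FPKM with FKA and 43.8, 59 and 57.8 FPKM in controls. RFC3 had 1.52, 1.45 and 1.41 FPKM with FKA and 11.7, 12.4 and 14.8 FPKM in controls. WSB2, which overlaps RFC5 in the annotation, had 2171 to 2339 counts with FKA and 1343 to 1815 in controls (0.51, edgeR adjusted p = 0.00162). RFC5 had 574 to 719 counts with FKA and 1996 to 2993 in controls, and reads shared by the pair cannot be assigned. RFC1 made up 33.5 ± 2.47% of the loader's summed FPKM with FKA and 15.3 ± 1.81% in controls, while RFC3 held 3.37 ± 0.231% with FKA and 10.1 ± 0.721% in controls (SD, n = 3 each).

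The loader named after CTF18, which works with polymerase epsilon, was measured through CHTF18 and DSCC1. DSCC1, which links it to the polymerase, had 0.263, 0.391 and 0.385 FPKM with FKA and 9.48, 11.9 and 13.1 FPKM in controls, and fell by 5.04 in log2 terms (SE 0.218, edgeR adjusted p = 1.38e-06). CHTF18, its large subunit, had 2.82, 2.81 and 4.13 FPKM with FKA and 10.1, 9.80 and 10.7 FPKM in controls (-1.65, SE 0.165). DSCC1 made up 9.76 ± 2.12% of the pair's FPKM with FKA and 52.7 ± 3.84% in controls (SD, n = 3 each).

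**Figure D4:**
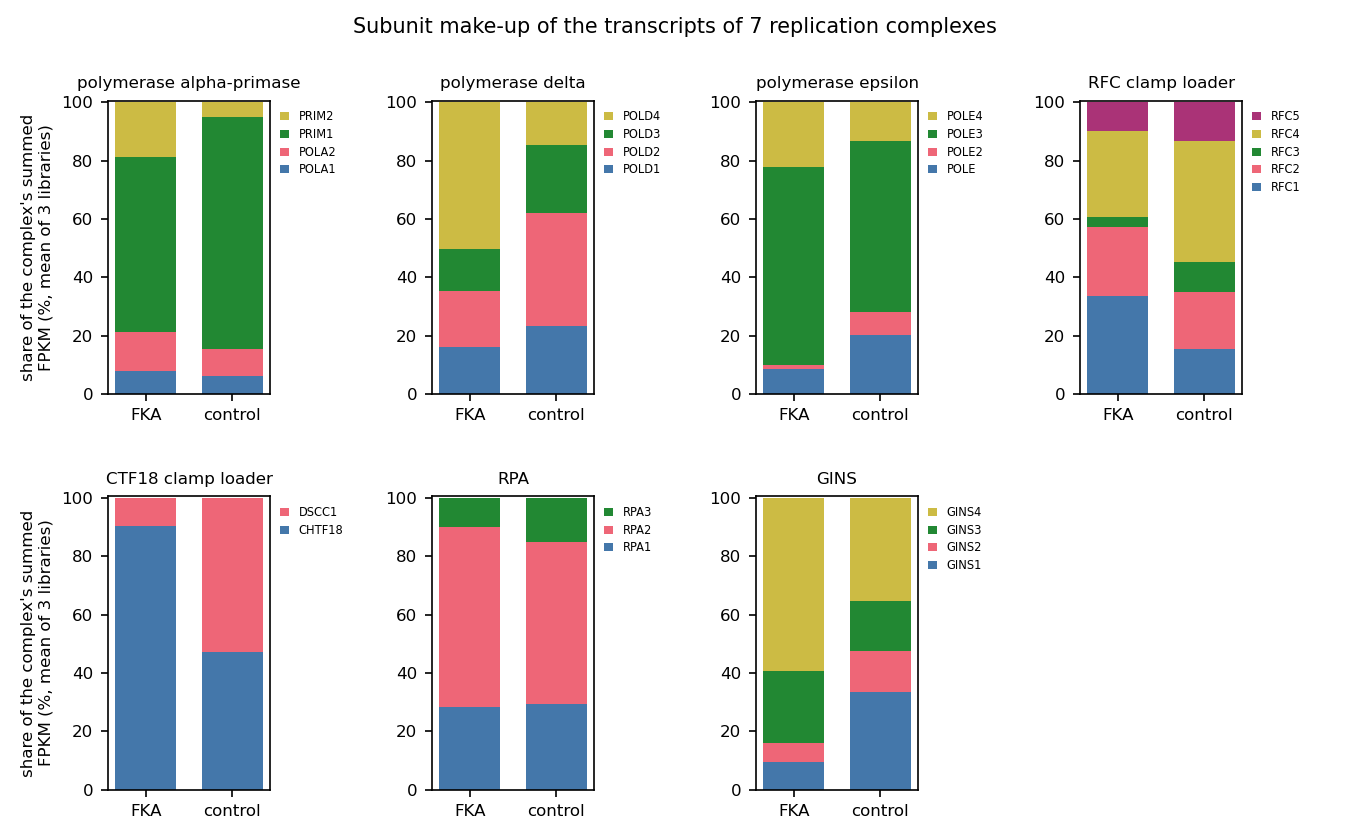
Share of each subunit in the summed TMM-scaled FPKM of its complex (y axis, %, mean of 3 libraries) for 7 complexes, FKA bar left of control bar. POLD4 takes 50.3% of polymerase delta with FKA and 14.5% in controls, and DSCC1 takes 9.76% of the CTF18 pair with FKA and 52.7% in controls.

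Okazaki fragments are trimmed by FEN1 and DNA2 and joined by LIG1. The flap nuclease FEN1 had 5.15, 3.92 and 4.28 FPKM with FKA and 30.3, 34.8 and 37.4 FPKM in controls (log2 fold change -2.94, SE 0.138, edgeR adjusted p = 2.26e-06). The ligase LIG1 had 3.9, 4.25 and 3.98 FPKM with FKA and 14.4, 12.1 and 14.3 FPKM in controls, without overlap. LIG1 stood at -1.75 (SE 0.113) and DNA2, a nuclease with helicase activity that also works at stalled forks, at -1.24 (SE 0.165). All 3 subunits of RPA, which coats exposed single strands in replication and in repair, fell. RPA1 had 14.5, 14.5 and 15.6 FPKM with FKA and 24.9, 27.6 and 28.1 FPKM in controls (-0.85, SE 0.0855). RPA2 stood at -0.66 (SE 0.113), and RPA3, the small subunit, at -1.47 (SE 0.196). RPA3 had 5.54, 5.26 and 4.60 FPKM with FKA, all below its 10.0, 16.0 and 16.5 FPKM in controls. UMAD1, which overlaps RPA3 in the annotation, was not called (log2 fold change -0.06, edgeR adjusted p = 0.726). It had 547 to 632 counts with FKA and 521 to 771 in controls. RPA3 had 323 to 360 counts with FKA and 630 to 1155 in controls, and reads shared by the pair cannot be assigned.

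The fork protection complex travels with the helicase and relays the checkpoint signal. CLSPN, the adaptor through which ATR reaches the kinase CHEK1, had 0.167, 0.195 and 0.121 FPKM with FKA and 4.67, 4.74 and 5.85 FPKM in controls, and fell by 4.98 in log2 terms (SE 0.194, edgeR adjusted p = 9.28e-07). Its partners TIMELESS and TIPIN, which bind each other, changed by similar amounts, -1.99 (SE 0.13) and -1.73 (SE 0.144). WDHD1, which couples polymerase alpha to the helicase, had 2, 1.65 and 1.88 FPKM with FKA and 9.65, 11.4 and 13.1 FPKM in controls (-2.62, SE 0.141). CHEK1 itself had 0.72, 1.02 and 0.908 FPKM with FKA and 7.58, 13.8 and 13.5 FPKM in controls, a log2 fold change of -3.72 (SE 0.254, edgeR adjusted p = 9.63e-06). Control replicate 1 was again the lowest control, and the groups stayed apart. LOC118567325, which overlaps CHEK1 in the annotation, had 11 to 32 counts with FKA and 8 to 31 in controls. CHEK1 had 119 to 168 counts with FKA and 1209 to 2545 in controls, and reads shared by the pair cannot be assigned.

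The upstream kinase ATR changed less, with 5.59, 5.29 and 6.20 FPKM with FKA and 10.8, 8.51 and 8.95 FPKM in controls (log2 fold change -0.73, SE 0.115, edgeR adjusted p = 0.000663). The CHEK1 to ATR count ratio was lower with FKA by 2.96 on the log2 scale. ATRIP, the partner that brings ATR to RPA-coated DNA, was barely detected, with 12, 20 and 24 counts with FKA and 13, 8 and 14 counts in controls, and was not called (0.68, SE 0.431, edgeR adjusted p = 0.197). In the annotation ATRIP lies within the read-through gene ATRIP-TREX1, which had 1 to 11 counts, and no source at hand says how reads of overlapping genes were counted. The ATRIP level is therefore uncertain.

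Ratios of paired genes, most of them from the same complex, were compared because scaling factors cancel in them. LIG1 over FEN1, DNA2 over FEN1 and CHEK1 over ATR instead pair separate enzymes of a shared process. The 24 pairs were chosen with earlier results of these data known. In 17 of them the FKA and control libraries did not overlap, 12 with a higher ratio and 5 with a lower ratio with FKA. Over all pairs of tested genes 66.1% did not overlap, so this count lies near the background. The exact two-sided permutation test cannot go below p = 0.1 with 3 against 3 libraries, and its adjusted p over the 24 pairs was 0.141 for each of the 17. By size, CHTF18 over DSCC1 differed by 3.36 on the log2 scale, CHEK1 over ATR by -2.96, PRIM2 over PRIM1 and POLD4 over POLD1 each by 2.35, and POLE4 over POLE by 1.97. Pairs that overlapped included RFC5 over RFC4, with a difference of 0.04, and TIMELESS over TIPIN, with -0.25. For POLD2 over POLD1 (-0.52) the difference was -0.10 without FKA replicate 2, and for POLD3 over POLD1 (-0.12) the sign turned without FKA replicate 2 or control replicate 3.

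**Figure D5:**
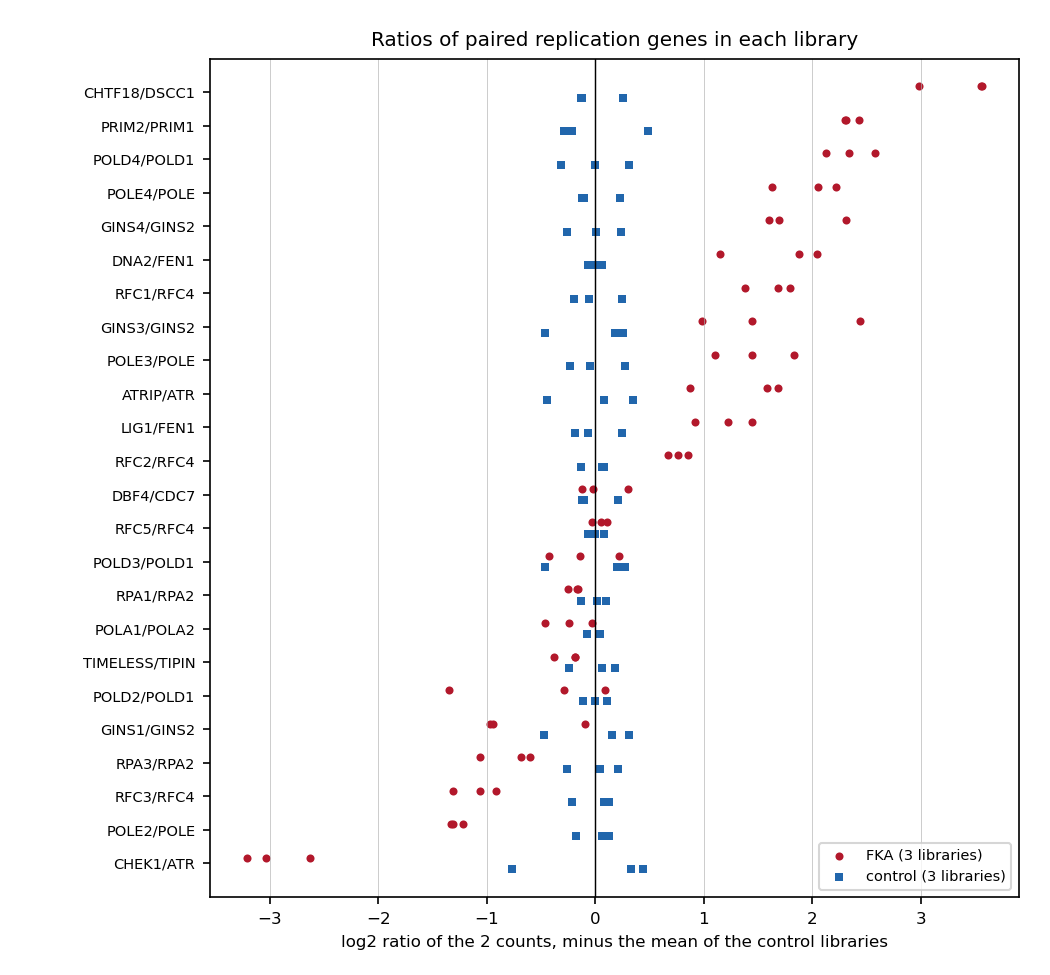
Log2 count ratio of 24 gene pairs (y axis) in each library, set against the mean of the control libraries (x axis, log2 scale), with FKA libraries as red circles and control libraries as blue squares. CHTF18/DSCC1 lies at the top with a mean difference of 3.36 and CHEK1/ATR at the bottom with -2.96, while RFC5/RFC4 and DBF4/CDC7 stay near 0.

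Other genes of DNA replication and its surroundings were counted in 9 lists with 84 measured genes, of which 56 fell, 11 rose and 17 were not called (median log2 fold change -0.94). Over all tested genes 30.5% fell and 29.3% rose, the shares beside which this count and those of the single lists stand. All 9 genes of the MCM helicase and its partners fell, led by MCM10 (-7.76), MCM2 (-5.00) and MCM4 (-3.77). Of 9 origin licensing genes 7 fell, led by CDC6 (-5.74, and -6.55 without FKA replicates 2 and 3), CDT1 (-5.54) and ORC6 (-3.75). Of 9 genes of chromatin assembly behind the fork 8 fell, led by the histone chaperones ASF1B (-4.21), CHAF1A (-3.47) and CHAF1B (-2.95). Of 9 factors that act with PCNA 8 fell, led by PCLAF (-4.88), the ligase receptor DTL (-4.76) and UHRF1 (-3.53), which guides maintenance methylation.

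Of 14 translesion, repair and mitochondrial polymerase genes, 4 rose, 3 fell and 7 were not called, with a median of 0.01. Over all tested genes 29.3% rose and 30.5% fell, and the counts of these polymerases lie near those shares. POLQ, which joins broken ends, fell by 4.55, MAD2L2 by 1.23 and REV3L by 0.49 on the log2 scale, the last pair being parts of polymerase zeta. POLN rose by 3.03 from a very low level, with 0.384 ± 0.246 FPKM with FKA and 0.0465 ± 0.0211 FPKM in controls (SD, n = 3 each). FKA replicate 3 was its highest library, and without it the change was 2.38. The base excision polymerase POLB had 32.5 ± 2.12 FPKM with FKA and 15.9 ± 0.433 FPKM in controls (1.03, edgeR adjusted p = 4.38e-05), and POLI (0.90) and the mitochondrial polymerase POLG (0.55) rose as well. POLB, POLI and POLG were named after their values were seen.

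Of 6 genes of other clamp loaders and the checkpoint clamp, 4 fell (3 with the batch block) and 2 rose. ATAD5, the unloader of PCNA, fell by 2.63 and RHNO1 by 1.97 on the log2 scale, whereas the checkpoint clamp subunits HUS1 (0.80) and RAD9A (0.49) rose. Of 8 genes of ribonuclease H and topoisomerases, 6 fell and 1 rose. Within ribonuclease H2, which removes RNA from DNA, the catalytic subunit RNASEH2A stood at -2.10 and RNASEH2B at -1.13, while RNASEH2C rose by 0.98. TOP2A fell by 4.10 on the log2 scale.

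Of 12 genes of fork remodelling and replisome removal, 5 fell (6 with the batch block), 2 rose and 5 were not called, near the 59.8% called in either direction over all tested genes. The helicase BLM stood at -3.61, the ligase TRAIP at -2.10 and ZRANB3 at -1.41, against UBXN7 (0.52) and RECQL (0.35). Of 8 further DNA damage checkpoint genes, 6 fell and 2 rose, with BRCA1 at -3.88, CDC25A at -3.59 and WEE1 at -2.77, against TP53BP1 (0.79) and ATM (0.38). Among the genes named from these lists, the calls of RECQL, ATM, RAD9A, REV3L and POLN did not pass without FKA replicates 2 and 3 together. Some genes of the lists that are not named lost their call there too.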

How the data were processed

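The authors deposited whole-number read counts and FPKM values per gene symbol for 3 FKA and 3 control libraries. Each deposited FPKM equalled the count over the column total and 1 length per gene (largest relative deviation 6.9e-07). These lengths ran from 1097 bases for POLE4 to 11245 for RFC3, and levels compared between genes depend on them. GRCm38 and mm10, names of mouse builds, appear in the submitters' processing notes, while 94.5% of the symbols matched the human RefSeq table. The sources used here do not give the aligner, counter, annotation or use of strand.

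Counts were filtered (filterByExpr), TMM-scaled and tested with edgeR 4.0.16 in R 4.3.3 (quasi-likelihood F test, FKA against control, adjusted p threshold 0.05 over 13531 genes). The biological coefficient of variation was 15.4%. SEs are the log2 change over the square root of F. Levels are deposited FPKM rescaled by TMM, with SD over 3 libraries. The test was checked on simulated counts in which few genes changed, as many up as down, none of them low in count before the change. A share of changed genes as large as in these data was not simulated.

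The replicate number equals the batch label, which pairs the libraries. Deviations from group means correlated at 0.11, 0.43 and -0.08 within batches 1, 2 and 3. Alternatives were a fit with the batch as block, DESeq2 1.42.0, other scalings (upper quartile, RLE, library totals), and other filters (at least 1 CPM in 3 libraries, or none). Others were limma 3.58.1 on log2(FPKM + 1) and log2(FPKM + 0.1), a mean FPKM of at least 1, leaving out each library, and leaving out FKA replicates 2 and 3. Members, lists and pairs were chosen with earlier results of these data known. Named genes are all members and, from each other list, up to 3 called genes of largest change and those against its main direction.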

Additional observations from a re-analysis of the deposited data

How the results depend on the processing

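Of the 44 fork genes under 17 alternatives, 746 values were computed and 744 kept direction and call. The exceptions were RFC1 and DONSON, given above, and none turned its sign. The count of members lower ran from 40 to 41 without single libraries and was 39 without FKA replicates 2 and 3 together. The batch block, which pairs the replicates, left the members at 40 lower and 1 higher and gave a median log2 fold change of -1.83. That median moved by more than the 0.0611 spread (SD) between batches with upper-quartile factors (-1.75), library totals (-1.66), log2(FPKM + 1) (-1.46), log2(FPKM + 0.1) (-1.67), a mean FPKM of at least 1 (-1.47) and without FKA replicates 2 and 3 (-1.97). Without single libraries it ran from -1.94 to -1.77, and moved by more than that spread without control replicate 1 (-1.89), control replicate 2 (-1.90) and FKA replicate 3 (-1.94). Adding 1 or 0.1 to FPKM by construction shrinks the change of low genes such as CDC45 (-3.74 with 1 added). Under library totals the median over all genes shifted by 0.16, and 60.3% of 4993 upward and 3282 downward calls were upward, beside 48.9% with TMM (3959 and 4131). The upward share was 60.9% on log2(FPKM + 1), 60.8% on log2(FPKM + 0.1) and 59.7% when a mean FPKM of 1 was required. Without FKA replicates 2 and 3, 2020 genes were higher and 2599 lower over all genes, and 7 of the other replication genes were higher, from a fit with 1 FKA library assumed to vary like the controls. Without single libraries the counts over all genes ran from 3365 to 3981 higher and from 3711 to 4212 lower, and the pairs without overlap from 17 to 19. The cause of these differences was not tested. Log2 ratios turned sign for POLD2 over POLD1 (0.09 without FKA replicates 2 and 3), for POLD3 over POLD1 (0.22 without those, 0.04 without FKA replicate 2, 0.02 without control replicate 3, and -0.35 to 0.04 without single libraries) and for DBF4 over CDC7 (-0.01 without those, -0.06 without FKA replicate 3, and -0.06 to 0.17 without single libraries). CDC45 rests on 6 or 7 counts in an FKA library and ATRIP on 8 to 24 in any, which limits their precision.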

Other observations

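Of the 44 members, 32 were lowest among controls in control replicate 1, 12 in control replicate 2 and 0 in control replicate 3, and 30 were highest in control replicate 3. Over all tested genes 39.4% were lowest in control replicate 1. The median deviation of the members from the group mean was -0.03, 0.01 and 0.06 on the log2 scale for the FKA libraries, replicates 1 to 3, and -0.20, 0.02 and 0.15 for the control libraries. The part of control replicate 1 in the results was not tested, and without control replicate 1 the count of members lower was 41, with a median of -1.89.

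The order of the members by level was partly kept. Across the 44 genes the level with FKA and the level in controls had a Spearman correlation of 0.75, and the control level and the log2 fold change one of 0.16. These points share their libraries, and the values are a description. The summed level of the 44 genes was 326.4, 317.9 and 347.8 FPKM in FKA replicates 1 to 3, and 855.5, 971.8 and 1070.0 FPKM in control replicates 1 to 3. With FKA 10 members lay below 1 FPKM, against 1 member in controls.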
